A study of Mus musculus with 15 samples.

Results

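Transcripts of 7 genes that mark neural crest, Schwann cells and enteric neurons were followed in embryonic mouse pancreas. The genes were chosen by symbol, *Sox10*, *Foxd3*, *Erbb3*, *Fabp7*, *Ngfr*, *Ret* and *Tubb3*, and each had 1 entry among the 25292 genes of the count table. The rule itself used no measured value, but the members were chosen with earlier results of these data known. The 15 RNA sequencing libraries formed 5 groups of 3 replicates, all on the C57/Bl6J background. Fresh pancreata were taken at 14.5 days post coitum (dpc) from wild-type embryos (wt) or from embryos labelled S1pr2 null, which carry a null allele of the sphingosine-1-phosphate receptor S1pr2 (S1pr2tm1Rlp). Wild-type explants cut at 14.5 dpc, for which the study's methods name the dorsal bud, were kept for 2 days on filters at the air-liquid interface in serum-free medium with N2 supplement. They received no agent (control), 15 μM of the S1pr2 antagonist JTE013 (JTE), or 15 μM JTE013 and 50 ng/ml connective tissue growth factor (JTE + CTGF). Each library pooled organs from up to 3 embryos of the same genotype, or up to 3 explants of the same treatment. The control libraries therefore differed from wt in culture, in time and possibly in the part of the organ taken.

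Neural crest cells leave the dorsal neural tube and migrate into the organs, where they form glia and neurons. Those that reach the gut and pancreas keep Sox10 and Foxd3 while they are progenitors, turn on Erbb3 and Fabp7 as glia, and turn on Tubb3 as they become neurons, and those of the gut already carry Ret as enteric progenitors. In the developing pancreas such cells settle around the epithelium and the islets, and several of the same genes are also read in other cells, such as Tubb3 in endocrine precursors, Erbb3 in epithelium and Ngfr in mesenchyme.

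Library totals ranged from 11402804 to 13828737 reads assigned to genes, and 16245 genes, with all 7 members among them, passed the filter on low counts. Reads of S1pr2 ranged from 796 to 858 in wt and from 1368 to 1609 in the libraries labelled S1pr2 null, and every direction given for those libraries rests on the label. The study describes the allele as a cassette inserted into the first exon, so a count over the whole gene does not check it. Among replicates, JTE 3 stood furthest apart, with 17.2 chi-square units per gene against JTE 1 and 23.2 against JTE 2, where other pairs lay between 2.34 and 10.2. Scaling by library totals alone, in place of the trimmed mean of M-values (TMM), moved the median log2 fold change of all genes between control and wt by −0.14 and that of the other comparisons by less. The crest factor *Sox10* was detectable in each library, with 84 to 302 reads. The neuronal *Elavl4*, named after its values were seen, had 79 to 124. Of 19 neuronal genes with an entry, 17 were tested, while *Dbh* had 0 to 12 reads and *Chat* 0 to 9. *Pax3*, *Pax7*, *Tfap2b* and *Zic1*, factors of the premigratory crest, were at or under 3 reads in each library. They were the lowest of 13 early crest factors examined. The other 9 passed the filter, such as *Snai2* with 165 to 704 reads and *Tfap2a* with 4 to 26. The markers of gut epithelium, *Cdx1*, *Cdx2*, *Fabp1* and *Fabp2*, summed to at most 16.3 normalised reads in any library. In pooled tissue, fewer cells of a type and less RNA per cell cannot be told apart.

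The genes lie on 6 chromosomes of the mm10 build. *Sox10* (ENSMUSG00000033006) occupies chr15:79154913-79164490 on the minus strand, *Foxd3* (ENSMUSG00000067261) chr4:99656299-99658671 on the plus strand, *Erbb3* (ENSMUSG00000018166) chr10:128567523-128589652 on the minus strand and *Fabp7* (ENSMUSG00000019874) chr10:57784881-57788450 on the plus strand. *Ngfr* (ENSMUSG00000000120) occupies chr11:95568818-95587735 and *Ret* (ENSMUSG00000030110) chr6:118151748-118197744, both on the minus strand, and *Tubb3* (ENSMUSG00000062380) chr8:123411424-123422015 on the plus strand. Annotated exons add up to between 1250 bases for *Fabp7* and 7341 bases for *Ret*, and *Foxd3* is a single exon. No other gene of the count table overlaps their exons. Of the 50-base words in their transcripts, 2.59% of those of *Foxd3* and 0.854% of those of *Ngfr* also occur at other loci, and none of those of the other members, so few reads could be lost to copies.

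Promoter sequences of RefSeq (GRCm38.p6) were matched for 4 of the 7 members, *Foxd3*, *Ngfr*, *Fabp7* and *Tubb3*. The stretches that end at the base before the first annotated exon are shown for *Fabp7*, which changed most under JTE013, and for *Ngfr* and *Tubb3*, which were both higher in cultured than in fresh tissue. Capitals mark matches on the printed strand to GGGCGG, the GC box bound by Sp1 and related factors.
Fabp7: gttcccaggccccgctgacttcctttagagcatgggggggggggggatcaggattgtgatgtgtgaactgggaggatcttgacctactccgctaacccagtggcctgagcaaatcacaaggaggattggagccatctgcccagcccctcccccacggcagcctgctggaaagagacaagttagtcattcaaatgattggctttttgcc
Ngfr: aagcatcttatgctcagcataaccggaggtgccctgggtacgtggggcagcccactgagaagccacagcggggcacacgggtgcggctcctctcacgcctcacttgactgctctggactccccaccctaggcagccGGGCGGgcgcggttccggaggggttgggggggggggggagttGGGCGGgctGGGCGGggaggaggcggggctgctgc
Tubb3: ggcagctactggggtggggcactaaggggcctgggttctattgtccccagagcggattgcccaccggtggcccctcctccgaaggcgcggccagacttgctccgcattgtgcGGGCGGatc
The *Fabp7* stretch covers chr10:57784673-57784880 on the plus strand, the *Ngfr* stretch chr11:95587736-95587948 on the minus strand and the *Tubb3* stretch chr8:123411303-123411423 on the plus strand. GGGCGG matched 3 times for *Ngfr* and 1 time for *Tubb3*, and occurs in 27.4% and 12.9% of all 32851 promoters of the table over windows of those lengths. These windows run from the first base of each promoter entry, so they match in length but need not end at a first exon. The TATA box (TATAAA), a SOX site (ACAAAG), an E box (CAGCTG), a TEAD site (CATTCC) and the cAMP response element (TGACGTCA) were searched as well. The search covered both strands, like that for the GC box, and found no match to these motifs in the printed stretches. For *Foxd3*, the stretch of 250 bases on the plus strand at chr4:99656049-99656298 held 1 match to TGACGTCA, found in 1.55% of all promoters over that window, and no match to the other motifs. G and C made up 56.2% of the bases for *Fabp7*, 70.9% for *Ngfr* and 67.8% for *Tubb3*.

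Per length, the order of the members differed between groups. In RPKM, reads scaled to exon length and library size, wt pancreata had *Erbb3* at 18.1 ± 0.208 (SD, n = 3 here and below), *Tubb3* at 16.3 ± 0.826 and *Ret* at 10.3 ± 1.54. *Sox10* followed at 6.46 ± 0.442, *Fabp7* at 6.11 ± 0.429, *Ngfr* at 4.49 ± 0.558 and *Foxd3* at 1.11 ± 0.184. Only *Sox10* and *Fabp7* overlapped among neighbours of that order. In control explants *Tubb3* led at 29.7 ± 2.11 RPKM, before *Erbb3* at 22.1 ± 0.905 and *Ngfr* at 13.9 ± 0.782, and no neighbours in the order overlapped. With JTE + CTGF, *Ngfr* had 20.2 ± 4.47 RPKM and overlapped *Tubb3* at 18.2 ± 0.805, while *Erbb3* was at 11.9 ± 1.13. *Foxd3* was last in all 5 groups, between 0.868 and 1.36 RPKM on average.

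**Figure D1:**
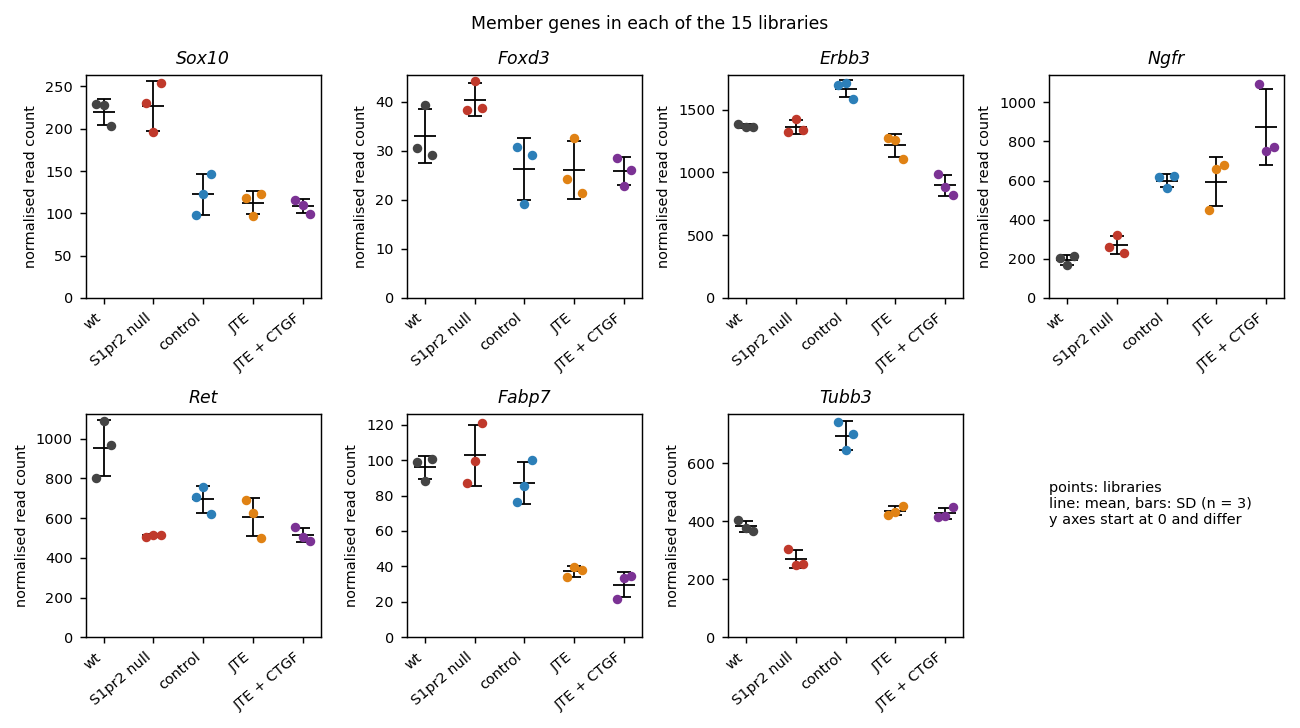
Normalised read counts (y axis, from 0, scale differs by gene) of the 7 member genes in the 15 libraries, by group (x axis), with a point per library and the mean and SD of 3 libraries. *Fabp7* lay between 76.4 and 99.97 in control and between 33.9 and 39.8 in JTE, *Ret* was lower in each library labelled S1pr2 null than in any wt library, and *Ngfr* was highest in JTE + CTGF.

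Between libraries labelled S1pr2 null and wt, *Ret* and *Tubb3* fell and the other 5 members were not called. Calls here and below are at an adjusted p below 0.05 in the quasi-likelihood test of edgeR with Benjamini-Hochberg adjustment over all genes tested. This test called 25.8% of all genes in that comparison, 12.6% higher and 13.3% lower. JTE013 lowered *Fabp7*, *Tubb3* and *Erbb3* against control, 3 of 7 members, and raised none, where 52.2% of all genes were called, 25.9% higher and 26.2% lower. Adding CTGF to JTE013 lowered *Erbb3* further and raised *Ngfr*, where 30.4% of all genes were called, 13.6% higher and 16.8% lower. Against control, JTE + CTGF explants had 4 members lower, *Fabp7*, *Erbb3*, *Tubb3* and *Ret*, and 1 higher, *Ngfr*, where 61.1% of all genes were called, 28.1% higher and 33.0% lower. Control explants had *Ngfr*, *Tubb3* and *Erbb3* higher and *Sox10* and *Ret* lower than wt, 5 of 7 members where 57.8% of all genes were called, 28.5% higher and 29.3% lower. At an unadjusted p below 0.05, members higher numbered 1 in libraries labelled S1pr2 null (*Ngfr*) and 0 with JTE, where 17.9% and 28.7% of all genes were higher, and DESeq2 called 1 and 0 members higher. Groups did not overlap for 3 members in the genotype comparison (46.3% of all genes), for 3 in JTE vs control (56.7%), for 2 when CTGF was added (40.2%), for 5 in JTE + CTGF vs control (64.8%) and for 5 in control vs wt (63.8%). The comparisons of JTE and of JTE + CTGF with control share the control libraries, and control vs wt shares them too. The median log2 fold change of the members was 0.04 in libraries labelled S1pr2 null, −0.20 with JTE and −0.43 with JTE + CTGF against control, where the medians over all genes tested were −0.01, 0 and −0.03.

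**Figure D2:**
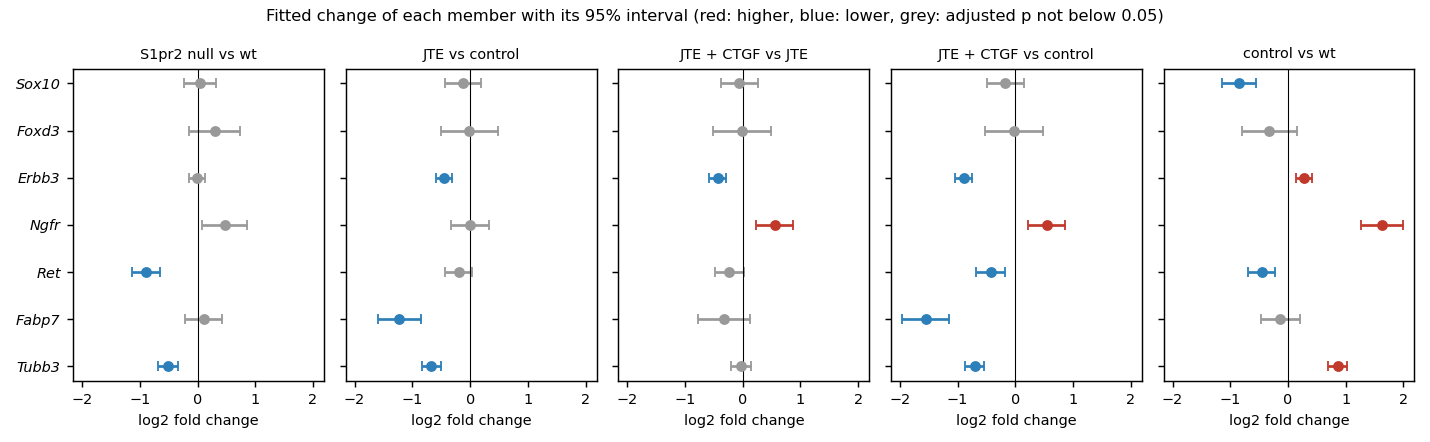
Fitted log2 fold changes (x axis) of the 7 members (y axis) with 95% intervals in 5 comparisons of 3 against 3 libraries, red for higher, blue for lower and grey for an adjusted p of 0.05 or more. *Fabp7* lies at −1.22 in JTE vs control and near 0 in S1pr2 null vs wt, *Ret* at −0.89 in S1pr2 null vs wt, and *Ngfr* at 1.63 in control vs wt.

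*Sox10*, the SRY-box factor that keeps crest cells as glial progenitors, had normalised read counts (counts scaled to a common effective library size) of 229.6, 228.0 and 202.7 in wt and 230.6, 195.8 and 254.1 in libraries labelled S1pr2 null. It had 97.7, 122.7 and 146.8 in control, 118.5, 97.0 and 122.8 in JTE and 115.5, 109.9 and 99.5 in JTE + CTGF. The fresh groups overlapped each other, as did the 3 cultured groups, and each fresh library lay above each cultured one. Control was 1.80-fold lower than wt (log2 −0.85 ± 0.14 SE, edgeR adjusted p = 5.67e-05). Neither the genotype (log2 0.04, 95% interval −0.23 to 0.32) nor JTE (−0.12, −0.43 to 0.20) gave a call.

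*Foxd3*, a forkhead factor of early crest cells, was read sparsely, with 19 to 48 reads per library. Its normalised counts averaged 33.0 ± 5.49 in wt, 40.4 ± 3.38 in libraries labelled S1pr2 null, 26.3 ± 6.33 in control, 26.1 ± 5.85 in JTE and 25.8 ± 2.85 in JTE + CTGF. Neighbouring groups overlapped throughout. No comparison called *Foxd3*. The 95% interval of the JTE difference ran from −0.51 to 0.48 on the log2 scale, so changes within that range were not excluded.

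*Erbb3* encodes the neuregulin receptor on which Schwann cell precursors depend. Its normalised counts were 1389, 1361 and 1363 in wt and 1324, 1429 and 1336 in libraries labelled S1pr2 null. They were 1698, 1712 and 1587 in control, 1277, 1261 and 1107 in JTE and 989.0, 881.7 and 819.6 in JTE + CTGF. The 3 cultured groups stood in 3 separate ranges, whereas wt and S1pr2 null overlapped.

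*Erbb3* fell 1.37-fold with JTE (log2 −0.46 ± 0.07, edgeR adjusted p = 2.32e-05; −0.39 without JTE 3) and a further 1.35-fold when CTGF was added (−0.44 ± 0.07, adjusted p = 0.000159). Against control the fall with JTE + CTGF was 1.86-fold (−0.89 ± 0.07, adjusted p = 1.22e-08). The difference between genotypes was −0.01, with an interval from −0.15 to 0.13. *Erbb3* was 1.21-fold higher in control than in wt (0.28 ± 0.07, adjusted p = 0.00151), a call lost under scaling by library totals (0.14, adjusted p = 0.0688). Markers of general epithelium, which also reads *Erbb3*, fell with JTE for 7 of 8 genes and summed to 40114 to 45696 normalised reads in control, 24643 to 30680 in JTE and 26476 to 29398 in JTE + CTGF, with no marker at 0. In libraries labelled S1pr2 null, 7 of the 8 were also lower, with sums of 19993 to 21098 against 27361 to 29352 in wt, while *Erbb3* gave no call. The part of epithelium in the *Erbb3* values was not tested.

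*Ngfr*, the low-affinity neurotrophin receptor used to sort crest stem cells, had normalised counts of 203.4, 166.7 and 212.1 in wt and 258.1, 319.5 and 229.7 in libraries labelled S1pr2 null. Cultured explants had 615.8, 561.0 and 622.8 in control, 448.6, 656.5 and 677.1 in JTE and 1095, 748.9 and 773.4 in JTE + CTGF. Each cultured library lay above each fresh one, control and JTE overlapped, and JTE + CTGF lay above both, with 1 high library.

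*Ngfr* was 3.09-fold higher in control than in wt (log2 1.63 ± 0.17, edgeR adjusted p = 5.25e-07). Adding CTGF to JTE013 raised it 1.47-fold (0.55 ± 0.15, adjusted p = 0.0116). That call was lost without JTE + CTGF 1 (0.35, edgeR adjusted p = 0.0812) or without JTE 1 (0.39, adjusted p = 0.0589), as was the rise of 1.46-fold over control (0.54 ± 0.15, adjusted p = 0.00569) without JTE + CTGF 1 (0.35, adjusted p = 0.0537). JTE alone differed from control by −0.01, with an interval from −0.34 to 0.32. In libraries labelled S1pr2 null *Ngfr* did not overlap wt, and the difference of 0.47 ± 0.18 missed the threshold (edgeR adjusted p = 0.0724). The 9 mesenchymal markers summed to 120699 to 125792 normalised reads in control, 133748 to 165931 in JTE and 149153 to 156695 in JTE + CTGF, 130155 to 132079 in wt and 100164 to 119537 in libraries labelled S1pr2 null, none of them at 0. Of the 9, 2 rose and 2 fell when CTGF was added (4 and 0 without JTE 3), and their part in the *Ngfr* values was not tested.

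*Ret* encodes the receptor kinase for the GDNF family, required by enteric neuron progenitors. Normalised counts were 803.9, 1086 and 966.6 in wt and 506.4, 517.1 and 514.0 in libraries labelled S1pr2 null. Explants had 707.1, 755.0 and 619.6 in control, 689.8, 628.0 and 500.4 in JTE and 555.7, 505.0 and 485.6 in JTE + CTGF. The libraries labelled S1pr2 null lay close together and below each wt library, while control and JTE overlapped.

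*Ret* was 1.86-fold lower in libraries labelled S1pr2 null (log2 −0.89 ± 0.11, edgeR adjusted p = 2.42e-05). The response to JTE was −0.20 ± 0.11 (adjusted p = 0.152), which was called only without JTE 1 (−0.30, adjusted p = 0.0476) and shrank to −0.08 without JTE 3. With JTE + CTGF *Ret* fell 1.35-fold below control (−0.43 ± 0.12, edgeR adjusted p = 0.00419), and control was 1.37-fold below wt (−0.46 ± 0.11, adjusted p = 0.00187). Adding CTGF gave −0.23 ± 0.12 (edgeR adjusted p = 0.152), called without JTE 3 (−0.32, adjusted p = 0.0339).

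*Fabp7*, the fatty acid binding protein of immature glia, had normalised counts of 99.0, 88.1 and 100.4 in wt and 87.3, 99.7 and 121.1 in libraries labelled S1pr2 null. Control had 76.4, 85.5 and 99.97, JTE 33.9, 39.8 and 38.1, and JTE + CTGF 21.7, 33.2 and 34.3. The fresh and control libraries overlapped, and each of the 6 libraries with JTE013 lay below each of the others. *Fabp7* fell 2.34-fold with JTE (log2 −1.22 ± 0.18, edgeR adjusted p = 2.54e-05; −1.24 without JTE 3) and 2.93-fold with JTE + CTGF against the same controls (−1.55 ± 0.19, adjusted p = 2.57e-06). The genotype gave 0.10, with an interval from −0.22 to 0.43, and CTGF added to JTE013 gave −0.33, from −0.78 to 0.12.

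*Tubb3*, the beta-tubulin of neurons, had normalised counts of 404.2, 376.4 and 366.9 in wt and 305.2, 250.2 and 251.5 in libraries labelled S1pr2 null. Control had 743.2, 644.4 and 699.8, JTE 423.2, 432.9 and 452.9, and JTE + CTGF 413.9, 419.1 and 448.9. Control stood above all other groups and libraries labelled S1pr2 null below them, and both groups with JTE013 overlapped.

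*Tubb3* was the member that fell under both conditions that target S1pr2. It was 1.43-fold lower in libraries labelled S1pr2 null (log2 −0.51 ± 0.08, edgeR adjusted p = 0.000249) and 1.59-fold lower with JTE (−0.67 ± 0.08, adjusted p = 1.59e-06; −0.70 without JTE 3). With JTE + CTGF it was 1.63-fold below control (−0.70 ± 0.08, edgeR adjusted p = 6.87e-07), and CTGF added to JTE013 gave −0.03, with an interval from −0.20 to 0.14. Control was 1.82-fold above wt (0.86 ± 0.08, edgeR adjusted p = 5.77e-08). Endocrine cells, whose precursors read *Tubb3*, moved in the same comparisons, with 10 of 13 markers lower in libraries labelled S1pr2 null and 10 of 13 lower with JTE. Their markers summed to 30756 to 33922 normalised reads in wt, 16867 to 18800 in libraries labelled S1pr2 null, 60810 to 69666 in control, 13852 to 18181 in JTE and 14413 to 20928 in JTE + CTGF, with no marker at 0. Their part in the *Tubb3* values was not tested.

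The response to JTE013 and the difference between genotypes were compared by their interaction, which was called for 42.9% of all genes, 21.5% in each direction, and for 3 of the 7 members. *Fabp7* (log2 −1.33 ± 0.24, edgeR adjusted p = 0.000277) and *Erbb3* (−0.45 ± 0.09, adjusted p = 0.00105) fell with JTE013 in explants and were not called between genotypes. *Ret* (0.69 ± 0.16, edgeR adjusted p = 0.0021) fell in libraries labelled S1pr2 null and was not called with JTE. For *Tubb3* the difference was −0.16, with an interval from −0.40 to 0.08, and for *Ngfr* −0.48, from −0.99 to 0.03. Culture, time and agent differ between these contrasts as well as the way S1pr2 was targeted, and cannot be told apart.

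Products that bind the member receptors were examined next, as gene lists with known roles. Counts in this and the other lists are to be read against the 12.6% of all genes called higher and 13.3% lower in libraries labelled S1pr2 null, and the 25.9% and 26.2% with JTE. Each library was also left out in turn for these lists, a choice made after the data were seen. For Ret, 7 ligands and co-receptors were tested. *Gfra3*, the co-receptor of artemin, had normalised counts of 225.1 ± 23.5 in wt, 150.8 ± 9.71 in libraries labelled S1pr2 null, 186.0 ± 12.6 in control and 44.4 ± 3.195 in JTE. It fell by 0.58 on the log2 scale in libraries labelled S1pr2 null (edgeR adjusted p = 0.000607) and by 2.06 with JTE (adjusted p = 1.27e-09). *Gdnf*, the ligand of enteric progenitors, fell by 0.87 with JTE (edgeR adjusted p = 0.00198), from 95.5 ± 17.5 to 52.8 ± 18.7, and its difference between genotypes was 0.27 (adjusted p = 0.237).

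*Gfra1*, the co-receptor of GDNF, was lower in libraries labelled S1pr2 null (log2 −0.30, not called at −0.24 without S1pr2 null 2 or without wt 2) and higher with JTE (0.35), whereas *Gfra2*, that of neurturin, was higher in the former (0.73) and lower with JTE (−0.45). The ligand *Artn* rose in libraries labelled S1pr2 null (0.61) and gave 0.33 with JTE, not called. *Nrtn* (−0.09 and −0.28) and *Gfra4* (0.28 and −0.08) were called in neither. In all, 2 of 7 rose and 2 fell in libraries labelled S1pr2 null, with a median of 0.27, and 1 rose and 3 fell with JTE, with a median of −0.28. When CTGF was added to JTE013, *Nrtn* rose by 0.55 and *Artn* by 0.47 while *Gfra1* was at −0.23, also called. These 3 calls were lost without JTE + CTGF 3 (0.41, 0.38 and −0.23), that of *Artn* also without JTE + CTGF 1, JTE 1 or JTE 2, and that of *Gfra1* also without JTE + CTGF 2 or any JTE library.

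Of 6 neuregulins and ErbB receptors tested, *Erbb2*, the kinase with which Erbb3 pairs, had 1121 ± 35.9 normalised reads in wt and 1487 ± 70.5 in libraries labelled S1pr2 null, a rise of 0.41 on the log2 scale (edgeR adjusted p = 3.37e-05). With JTE it gave −0.13 (edgeR adjusted p = 0.0611). *Egfr* rose by 0.82 in libraries labelled S1pr2 null and gave −0.11 with JTE. *Erbb4*, another neuregulin receptor, was sparse in wt at 4.37 ± 1.20 and rose with JTE by 1.84 (edgeR adjusted p = 1.3e-05), from 17.2 ± 2.96 to 61.8 ± 13.1. The ligands were not called in either comparison, *Nrg1* at 0.31 in libraries labelled S1pr2 null and 0.21 with JTE, *Nrg2* at 0.37 and −0.19 and *Nrg3* at 0.71 and 0.61. The list counted 2 of 6 higher and 0 lower in libraries labelled S1pr2 null (median 0.51) and 1 higher and 0 lower with JTE (median 0.05; 1 lower without JTE 3 or without control 2).

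Of the neurotrophins and their receptors, the partners of Ngfr, *Ntf5* rose by 1.03 on the log2 scale and *Ntf3* by 2.15 in libraries labelled S1pr2 null, the latter from 8.36 ± 1.45 to 37.8 ± 7.90 normalised reads. *Bdnf* (0.49), *Ntrk2* (0.07), *Ntrk3* (0.80) and *Sort1* (−0.06) were not called there. With JTE, *Ntf5* was at −0.72, a call lost when any of 12 libraries was left out (−0.80 to −0.60), and *Bdnf* rose by 1.09, and *Ntf3* (0.68), *Ntrk2* (0.07), *Ntrk3* (−0.45) and *Sort1* (−0.04) were not called. CTGF added to JTE013, which raised *Ngfr*, lowered *Ntrk2* (−0.60, edgeR adjusted p = 0.00083).

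**Figure D3:**
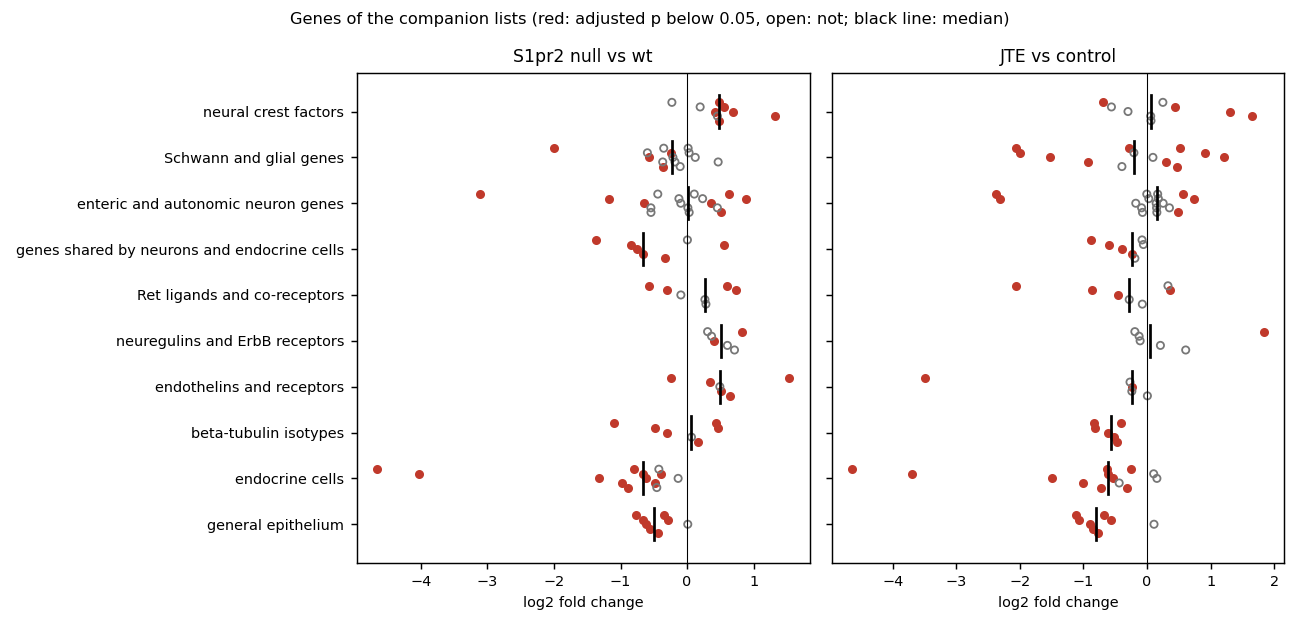
Log2 fold changes (x axis) of the tested genes of 10 lists (y axis) in S1pr2 null vs wt and in JTE vs control, red where the adjusted p was below 0.05 and open where not, with the median as a black line and genes at or under 3 reads in each library of a group left out. All 6 beta-tubulin isotypes plotted lie below 0 with JTE, while Schwann and neuron genes lie on both sides of 0.

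Glial and neuronal genes did not move as a block. Of 14 Schwann and glial genes tested, *Gfra3* among them, 0 rose and 4 fell in libraries labelled S1pr2 null (median −0.23), and 5 rose and 6 fell with JTE (median −0.24). The 5 that rose with JTE became 1 without JTE 3 or without control 1, 2 without control 3 and 3 without control 2. *S100b*, a calcium-binding protein of glia, fell by 2.00 and by 2.01 on the log2 scale, from 44.2 ± 5.12 to 10.9 ± 2.28 normalised reads between genotypes and from 124.1 ± 44.0 to 31.0 ± 10.3 with JTE. *Cnp*, a myelin enzyme, fell by 0.36 and 1.52, and *Mbp*, a myelin protein, was at −0.24 in libraries labelled S1pr2 null, not called without S1pr2 null 3 (−0.20) or without wt 2 (−0.23), and fell with JTE too (−0.28). *Dhh*, the hedgehog ligand of Schwann cells, was at or under 3 reads in each JTE library, at least 3.70-fold lower than in control. *Sox2* was at 1.21 with JTE, a call lost without control 1, control 3, JTE 1 or JTE 3 (0.85 to 1.21), and at 2.27 without control 2.

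Among 17 neuronal genes tested, 4 rose and 3 fell in libraries labelled S1pr2 null (median 0.01), and 3 rose and 2 fell with JTE (median 0.15). The 3 that rose with JTE became 1 without JTE 3, control 1 or control 2 and 5 without control 3. *Npy*, a neuropeptide also made by endocrine cells, fell by 3.12 and 2.31, and *Th*, the rate-limiting enzyme of catecholamine synthesis, by 1.18 and 2.38. In libraries labelled S1pr2 null *Gap43*, a growth cone protein, rose by 0.89 and *Nos1*, the neuronal nitric oxide synthase, was at −0.64, a call lost without any 1 of 5 of the 6 fresh libraries (−0.71 to −0.57). With JTE *Chrna3*, a ganglionic acetylcholine receptor subunit, was at 0.74, not called without control 1 (0.61, edgeR adjusted p = 0.0645). *Prph*, an intermediate filament of peripheral neurons, was at 0.57 with JTE and at 0.14 without JTE 3 (edgeR adjusted p = 0.43), and its call was also lost without control 1 (0.49) or control 2 (0.51). Of 7 genes that neurons share with endocrine cells, 1 rose and 5 fell in libraries labelled S1pr2 null (median −0.66), led by *Scg3*, a granule protein, which fell by 1.37, and 0 rose and 4 fell with JTE (median −0.24).

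The 7 other beta-tubulin genes gave a pattern like that of *Tubb3* in one comparison and not in the other. With JTE 7 of 7 were lower, where 26.2% of all genes were lower, with a median of −0.61. *Tubb4b* fell by 0.83, *Tubb4a* by 0.82 and *Tubb6* by 0.61, and *Tubb1*, a megakaryocyte isotype, was at or under 3 reads in each JTE library, with a call lost when any of 8 libraries was left out. In libraries labelled S1pr2 null 3 rose and 3 fell, *Tubb2b* to 1227 ± 4.56 from 890.5 ± 74.2 normalised reads (0.46) and *Tubb6* to 692.5 ± 39.3 from 964.0 ± 65.1 (−0.48). CTGF added to JTE013 called 0 of 7 in edgeR, and 0 at an unadjusted p below 0.05, with 1 called higher without JTE + CTGF 1 or without JTE 3.

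The factors of the early crest counted 6 of 9 higher and 0 lower in libraries labelled S1pr2 null, with a median of 0.48, where 12.6% of all genes were higher, and 3 of 9 without wt 2. *Msx2* was at 1.32 (1.04 to 1.33 and not called without S1pr2 null 1, S1pr2 null 3, wt 2 or wt 3), *Snai2*, a driver of crest delamination, at 0.69 and *Ets1* at 0.56, and these genes are also read in mesenchyme or endothelium. Of the 9 mesenchymal markers, 3 rose there, *Pdgfra* from 1605 ± 133.2 to 2966 ± 44.7 normalised reads, *Barx1* from 606.8 ± 52.96 to 955.1 ± 106.7 and *Nkx3-2* from 238.5 ± 18.3 to 532.9 ± 74.8, and 4 fell, and their part in the values of the crest factors was not tested. With JTE 3 crest factors were higher, *Tfap2a* (1.65), *Msx2* (1.30, a call lost without any of the control libraries, JTE 1 or JTE 3) and *Snai2* (0.44, and 0.27 without JTE 3), and *Sox9*, which epithelial progenitors also read, fell by 0.70. Of 6 endothelins and receptors, 4 rose and 1 fell in libraries labelled S1pr2 null, with a median of 0.50. The 4 became 2 without S1pr2 null 2, S1pr2 null 3 or wt 2. *Edn3* rose there from 196.0 ± 13.0 to 278.3 ± 11.5 normalised reads. *Edn2*, at 4 to 7 reads in wt, was at 1.53, not called without S1pr2 null 2 (1.38) or without wt 1 (1.34). *Edn1* was at 0.64 there, a call lost without any of 4 libraries (0.53 to 0.64), and *Ece1* fell. With JTE 0 rose and 2 fell, with a median of −0.26, and 4 fell without JTE 3. *Edn1*, made by endothelium, fell by 3.49 with JTE, from 57.6 ± 3.27 to 5.14 ± 3.30 normalised reads. The receptor *Ednrb* was at 0.35 in libraries labelled S1pr2 null, not called without S1pr2 null 3 (0.32) or without wt 2 (0.26), and gave −0.24 with JTE, not called. Of 6 endothelial markers 5 were lower with JTE, with sums of 4296 to 4839 normalised reads against 5766 to 7022 in control and no marker at 0, and their part in the *Edn1* values was not tested. Of 6 genes of melanocytes, another crest lineage, *Tyr*, *Mlana* and *Mc1r* were too low to be tested. Of the other 3, *Dct*, an enzyme of melanin synthesis, was lower in libraries labelled S1pr2 null (61.7 ± 12.2 to 36.6 ± 6.71 normalised reads, log2 −0.75, edgeR adjusted p = 0.0472) and with JTE (28.4 ± 5.76 to 14.7 ± 8.39, −0.97, adjusted p = 0.0267). The first call was lost when any of 10 libraries was left out (−0.88 to −0.58) and the second without control 1, JTE 2 or JTE 3 (−0.96 to −0.60), and the second was −1.45 without JTE 1.

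**Figure D4:**
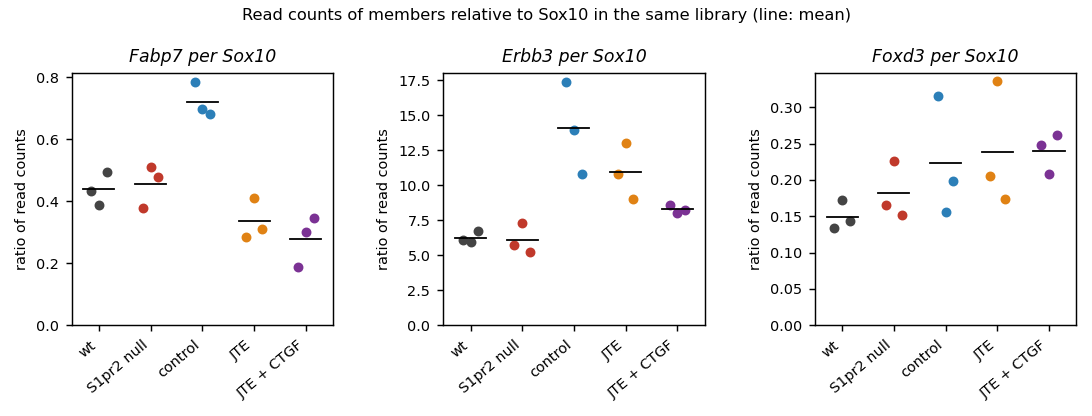
Read counts of *Fabp7*, *Erbb3* and *Foxd3* divided by those of *Sox10* in the same library (y axis, from 0), by group (x axis), with a point per library and a line at the mean. *Fabp7* per *Sox10* lay between 0.681 and 0.783 in control and between 0.286 and 0.411 in JTE, and *Foxd3* per *Sox10* between 0.156 and 0.315 and between 0.174 and 0.337.

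Within single libraries, *Fabp7* was set against *Sox10*, since both are read in glial progenitors. Reads of *Fabp7* per read of *Sox10* ranged from 0.387 to 0.495 in wt, 0.379 to 0.509 in libraries labelled S1pr2 null, 0.681 to 0.783 in control, 0.286 to 0.411 in JTE and 0.188 to 0.345 in JTE + CTGF. The 6 libraries with JTE013 lay below the control libraries. *Foxd3* per *Sox10* ranged from 0.156 to 0.315 in control and from 0.174 to 0.337 in JTE, which overlapped. *Erbb3* per *Sox10* ranged from 10.8 to 17.4 in control, 9.02 to 13.0 in JTE and 8.02 to 8.56 in JTE + CTGF, and from 5.97 to 6.72 in wt. The ratios rest on as few as 19 reads of *Fabp7* or *Foxd3* and 84 of *Sox10*, and are given as a description.

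The genes whose pattern over the 15 libraries was most like a member's were found by the root mean square (RMS) difference of centred log2 CPM (counts scaled to library size) among 10991 protein-coding genes (10992 for *Foxd3* and *Fabp7*). *Cdc7* was closest to *Sox10* (0.115), *Sipa1l3* to *Erbb3* (0.0798), *P2rx1* to *Ret* (0.142), *Fli1* to *Fabp7* (0.160) and *Ctsh* to *Tubb3* (0.111). *Vav2* was closest to *Foxd3* (0.157) and *Slc35e4* to *Ngfr* (0.242). The median gene lay at 0.532 from *Sox10* and at 0.833 from *Ngfr*. No member was among the 3 genes closest to another member, though *Foxd3* and *Fabp7* had too few reads to qualify. *Acsf2* and *Mcm8* came next for *Sox10*, *Slc39a10* and *Rc3h1* for *Erbb3*, *Usp2* and *Itga6* for *Ret*, *Pimreg* and *Sfpq* for *Fabp7*, *Smpd3* and *Tapbpl* for *Tubb3*, *Lrfn1* and *4930579G24Rik* for *Foxd3* and *Gem* and *Ctsb* for *Ngfr*. The likeness is a description over libraries that share their groups.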

How the data were processed

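Poly(A) RNA of 15 strand-specific libraries had been sequenced as single-end reads, which the authors aligned to mm10 with GSNAP. Per the labels, the deposited values are raw read counts per Ensembl gene from featureCounts 1.4.6, taken from uniquely aligned reads, and the strand setting is not given in the sources used here. Groups and replicate numbers came from the sample titles. Symbols came from GENCODE M21 and were found for 24750 of 25292 IDs (97.9%). The test was edgeR's quasi-likelihood F-test (edgeR 4.0.16 under R 4.3.3) after TMM scaling and filterByExpr, with all 15 libraries in 1 fit without covariates and p-values adjusted by Benjamini-Hochberg over 16245 genes. DESeq2 1.42.0 served as an alternative. RPKM used exon lengths of the count table. The biological coefficient of variation was 7.3%, and at 11402804 to 13828737 reads per library counting error adds most for genes with few reads. Floors of 3 reads and all intervals cover the libraries sequenced. The 3 replicates per group are independent pools by the methods of the study, and no sequencing batch is given.

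The members and lists were chosen with earlier results of these data known. All 7 members are given, tested binding partners of a member are named for the genotype and JTE comparisons, some of which are not reported here, and from other lists up to 4 called genes of largest change are named, with *Elavl4* and *Sox2* added after their values were seen. Likeness was limited to genes with a mean normalised count of at least 100, 3 per member, with a pseudocount of 0.5 CPM. Other scalings, filters, fits, a replicate block, each library left out (for the lists chosen after the data were seen) and the criterion of the study (adjusted p of at most 0.1, mean above 100, fold below 0.6 or above 1.6) were tried. The fit was tested on simulated counts. Plots were drawn with Python 3.11.15 and matplotlib 3.10.9.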

Additional observations from a re-analysis of the deposited data

Results flagged for a closer look

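Of the 7 members, 3 differed between the response to JTE013 in explants and the difference of libraries labelled S1pr2 null from wt. Calls were by the interaction in edgeR with adjustment over all genes. The interaction was −1.33 on the log2 scale for *Fabp7*, which was lower in all 3 JTE libraries than in any control library. It was −0.447 for *Erbb3*, also lower in 3 of 3 JTE libraries. For *Ret* it was 0.694, with 3 of 3 libraries labelled S1pr2 null below each wt library. The interaction was called for 42.9% of all genes tested, a share close to that of the members.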

How the results depend on the processing

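Scaling by library totals or DESeq2 size factors, the stricter filter and the replicate block left each count of members called within 1.5 times its value. The replicate block, tried because groups share numbers, gave 3 members lower with JTE and 2 lower in libraries labelled S1pr2 null, as without it. Deviations of same-numbered libraries correlated between −0.265 and 0.46, and 5 of 15 libraries correlated best with their own number. Between JTE and control the correlations were −0.0362, 0.299 and 0.46 for numbers 1, 2 and 3. With 3 libraries per group, these values do not settle whether the numbers pair libraries. In libraries labelled S1pr2 null, 1 member (*Ngfr*) was higher in place of 0 without the filter on low counts (0.47, edgeR adjusted p = 0.00744), with DESeq2 (0.47, adjusted p = 0.0293) and with only the libraries of the contrast (0.47, adjusted p = 0.0074), and the cause was not tested. The interaction of *Ngfr* was also called without the filter (−0.47, edgeR adjusted p = 0.0332). Under the criterion of the study 1 member was lower in libraries labelled S1pr2 null, 0 with JTE, 0 higher and 0 lower when CTGF was added, 0 higher and 1 lower in JTE + CTGF against control and 1 lower in control against wt, since it asks for larger folds and a mean above 100. That criterion took 1.62%, 5.18%, 0.44%, 1.30%, 4.39%, 7.39% and 4.14% of all genes in those comparisons and directions. With 1 library left out, members higher ranged from 0 to 1 in libraries labelled S1pr2 null, 0 to 1 when CTGF was added and 0 to 1 in JTE + CTGF against control, and members lower when CTGF was added from 1 to 2. The direction of *Foxd3*, not called anywhere, turned when CTGF was added under DESeq2 size factors (0.0037), no filter (0.016) and DESeq2 (0.0011), and in JTE + CTGF against control without the filter (0.012). Leaving out 1 library also turned uncalled values, which ranged in libraries labelled S1pr2 null from −0.0468 to 0.141 (*Sox10*), −0.0428 to 0.0115 (*Erbb3*) and −0.0345 to 0.206 (*Fabp7*), with JTE from −0.254 to 0.0326 (*Sox10*), −0.202 to 0.119 (*Foxd3*) and −0.117 to 0.155 (*Ngfr*), when CTGF was added from −0.156 to 0.0457 (*Sox10*), −0.107 to 0.179 (*Foxd3*) and −0.0683 to 0.0334 (*Tubb3*), and in JTE + CTGF against control from −0.213 to 0.102 (*Foxd3*). Among all values of single members under the alternatives, 886 kept direction and call, 26 turned direction, 8 gained a call and 4 lost it. Depth limits *Foxd3* most, at 19 to 48 reads.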
